A study of Mus musculus with 15 samples.

Results

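The untreated RAW264.7 macrophage libraries were described as a baseline transcriptome. They were the 3 libraries labelled as untreated control, of 15 libraries in the series, and were chosen by that label alone. RAW264.7 is a mouse macrophage line transformed by Abelson murine leukemia virus. The series asked how nonporous and porous silica particles alter gene expression in this line. All cells were grown in RPMI with 10% fetal bovine serum and used at passages 6 to 14, and the control wells received fresh medium with serum and no particle. The other 12 libraries, 3 per group, came from cells given Stober50 or Stober500 (nonporous Stober silica), MSN500 (mesoporous silica) or MSN-PEG500 (pegylated mesoporous silica), with labelled doses of 13.1, 16.8, 111.8 and 84 µg/ml. The dosage label calls each a fraction of the LC50, and its wording does not settle whether the number is the concentration used. Incubation before lysis is stated as 24 h in one protocol and as 4 h in another, which leaves the time point of the control RNA uncertain too. RNA integrity was given as 8 to 10 for all samples together. RAW264.7 is a single line, and the labels do not say that the 3 control libraries came from separate cultures, so their spread may be technical.

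Macrophages are phagocytes that develop and survive under colony stimulating factor 1, whose receptor is Csf1r, and that take their identity from transcription factors of the ETS, C/EBP and IRF families, with PU.1 (Spi1) at the head. They engulf particles through Fc, complement and scavenger receptors, sense microbes through Toll-like and C-type lectin receptors, and degrade what they take up in acidified lysosomes rich in cathepsins and lysozyme. Levels below are the deposited FPKM, counts scaled to exon length and to library size, which allow genes of different length to be ranked. Where a level is given with an error, the error is the SD over the 3 libraries.

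The control libraries held 23263294, 22220535 and 19331632 counts for replicates 1, 2 and 3. A gene with no count could still have had up to 3, which is 0.129, 0.135 and 0.155 CPM (counts scaled to the library total) in these libraries. This limit covers counting error only. Of 13342 genes in the count table, 11494 were annotated as protein coding. A mean of at least 1 FPKM was reached by 10949 genes (82.1%), at least 10 by 5901, at least 100 by 574 and at least 1000 by 29, and the median gene stood at 8.03 FPKM. The 1040 most abundant genes carried 50% of the counts and the 5439 most abundant carried 90%. The 100 most abundant genes took 17.9%, 18.3% and 18.0% of the counts of the 3 libraries.

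Lysozyme led the baseline. Lyz2 (ENSMUSG00000069516), the macrophage lysozyme gene at chr10:117277334-117282274 on the minus strand of GRCm38, was at 8368, 7826 and 8264 FPKM in control replicates 1, 2 and 3, and alone took 1.03 ± 0.0364% of all counts. Its lowest library lay above the highest library of any other gene. Lyz1, the neighbouring lysozyme gene at chr10:117287796-117292868, stood at 4123, 4334 and 4556 FPKM, so that Lyz2 exceeded it 1.88 ± 0.127-fold. The paralogs shared 195 windows of 50 bases each, 15.4% of Lyz2 and 16.1% of Lyz1, so their split depends on how the authors placed reads that match both.

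Below the lysozymes, among nuclear genes of usual length, came the ferritin heavy chain Fth1, which stores iron, at 4304 ± 224 FPKM, the calcium-binding protein S100a4 at 3465 ± 144 and osteopontin Spp1, a secreted adhesion protein and cytokine, at 3061 ± 149. Fth1 overlapped Lyz1 in range, and Spp1 overlapped the mitochondrially encoded mt-Cytb (3261 ± 274) and mt-Co1 (2956 ± 240), so these neighbours did not differ beyond their spread. The rest of the 20 highest were housekeeping and cytoskeletal genes, among them Rplp1, Rpl8, Rpl4 and Eef1a1 of translation, Tmsb4x and Actb of the actin system, Pkm of glycolysis (1370 ± 78.5 FPKM), mt-Nd1 and mt-Nd2 of the respiratory chain, and the cysteine protease inhibitor Cst3 (1254 ± 60.8).

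**Figure D1:**
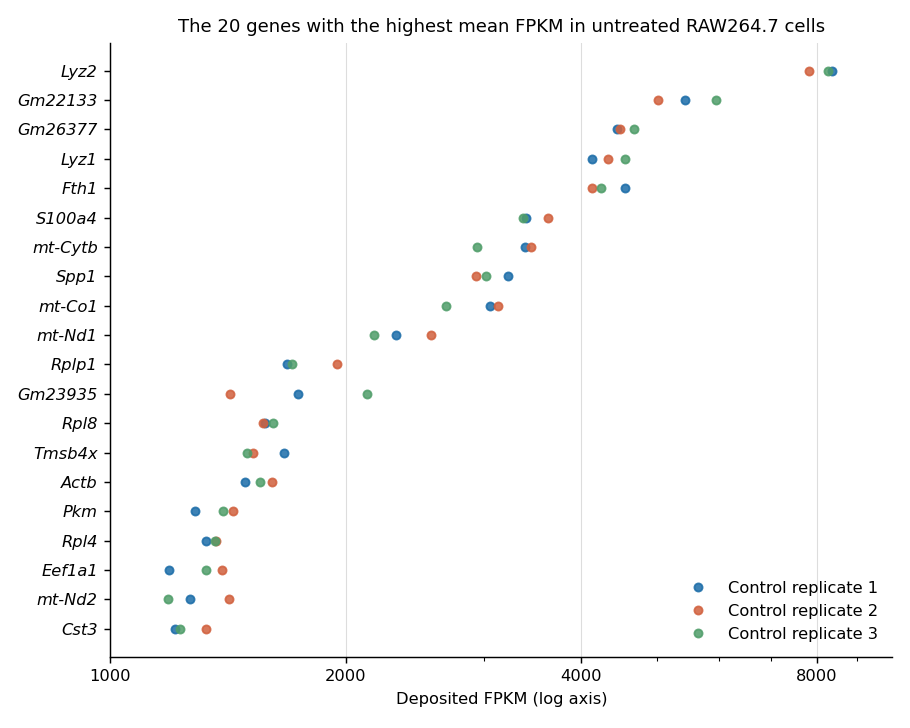
Deposited FPKM (log axis) of the 20 genes with the highest mean in the 3 untreated libraries, with 1 point per library. Lyz2 sits apart at 7826 to 8368 FPKM, and most neighbours further down the order overlap in range.

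The other 3 of these 20 were very short gene models, for which FPKM is a poor measure. Gm22133, a miRNA model of 109 bases at chr7:45458089-45458197, was listed at 5463 ± 474 FPKM, but it lies inside an exon of the ferritin light chain gene Ftl1 on the same strand, and its count equalled 48.0% of the Ftl1 count. Gm26377, of 108 bases, was listed at 4531 ± 121 FPKM and lies inside an exon of Eef1a1. Gm23935, of 57 bases, was listed at 1762 ± 354 FPKM and lay in no other annotated exon, but all 8 of its windows of 50 bases occurred in 2 other annotated genes. Of the 20 highest models under 200 bases, 17 lay inside an exon of another gene, and the 291 models under 200 bases took only 0.191% of the counts. By counts not divided by length, Gm22133 fell to rank 166 and Gm26377 to rank 233, whereas Lyz2, Lyz1 and Spp1 held the first 3 places.

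The macrophage markers were near the top of the transcriptome. All 15 defining markers were in the count table, 11 of them at 100 FPKM or more, with a median of 390 FPKM and a median rank of 90 of 13342 genes. Tyrobp, the signalling adaptor of activating myeloid receptors, stood at 1189, 1298 and 1218 FPKM. Cd14, the lipopolysaccharide co-receptor, was at 761, 811 and 835, and Cd68, a lysosomal membrane glycoprotein used to stain macrophages, at 752, 767 and 811, so the 2 overlapped. Csf1r followed at 713, 727 and 738 FPKM. The galectin Lgals3 (648 ± 64.5), the Fc receptor gamma chain Fcer1g (422 ± 11.4), the lysosomal protein Laptm5 (390 ± 5.99) and the pore-forming Mpeg1 (256 ± 5.43) came next, each apart from the next in range.

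Lower in the list were Adgre1, which encodes F4/80, at 112 ± 4.27 FPKM, Itgam, the CD11b chain of complement receptor 3, at 89.7 ± 5.30, the leukocyte phosphatase Ptprc at 44.5 ± 0.830 and the high-affinity IgG receptor Fcgr1 at 39.9 ± 2.10. Mertk, a receptor for apoptotic cells that marks many tissue macrophages, was the lowest at 4.49, 4.24 and 4.58 FPKM, rank 8450. Csf1, the ligand of Csf1r, was at only 0.466, 0.308 and 0.334 FPKM, so the receptor exceeded its ligand 2034 ± 442-fold in these libraries.

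**Figure D2:**
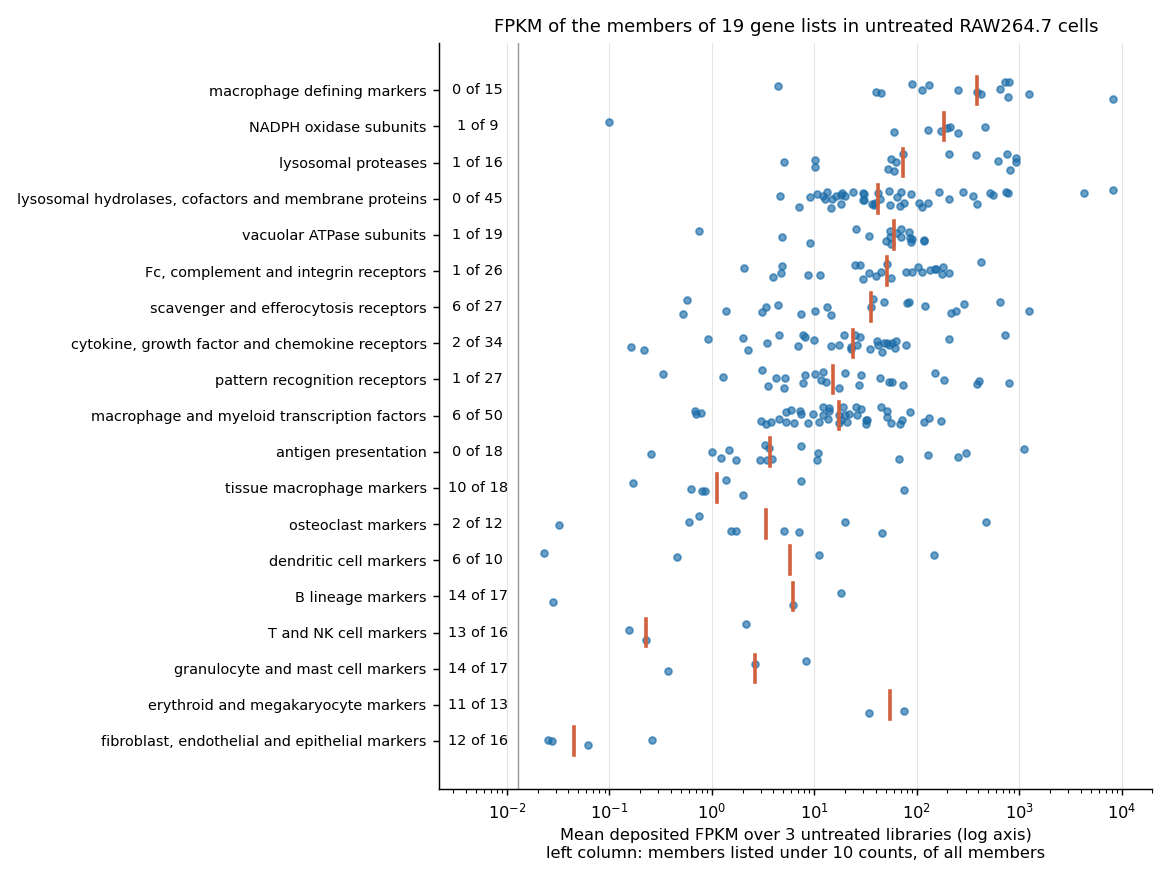
Mean FPKM (log axis) over the 3 untreated libraries for the members of 19 gene lists, with 1 point per gene and a bar at the median of the members in the count table. The left column counts members whose IDs the authors listed under 10 counts, from 0 of 15 macrophage defining markers to 14 of 17 B lineage markers.

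Among the transcription factors, 44 of 50 listed genes were in the count table and 41 were at 1 FPKM or more, with a median of 17.6 FPKM. Id2, an inhibitor of basic helix-loop-helix factors, was the highest at 171, 170 and 177 FPKM, followed by Spi1 (PU.1) at 124, 136 and 139 and Irf5, an interferon regulatory factor active downstream of Toll-like receptors, at 114, 120 and 122. Klf6 (86.7 ± 6.69) and Stat6, which acts downstream of interleukin 4 (72.7 ± 2.06), came next. Spi1 exceeded Cebpa, its partner in myeloid commitment, 4.10 ± 0.0286-fold, and it exceeded Irf8 11.9 ± 0.310-fold, ratios that were close to constant across the libraries.

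Of the MiT/TFE factors, which drive lysosomal genes, Mitf (20.8 ± 0.454) and Tfe3 (18.4 ± 0.540) were above Tfeb (4.49 ± 0.416). Pparg, Irf4 and Ahr were below 1 FPKM at 0.795, 0.710 and 0.694. The 6 factors listed under 10 counts were Batf3, Gata2, Gata6, Myb, Sall1 and Spic, which serve in dendritic cells, mast cells and progenitors or mark particular tissue macrophages. Many neighbours in this order did not separate: 24 of the 43 adjacent pairs overlapped in range.

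**Figure D3:**
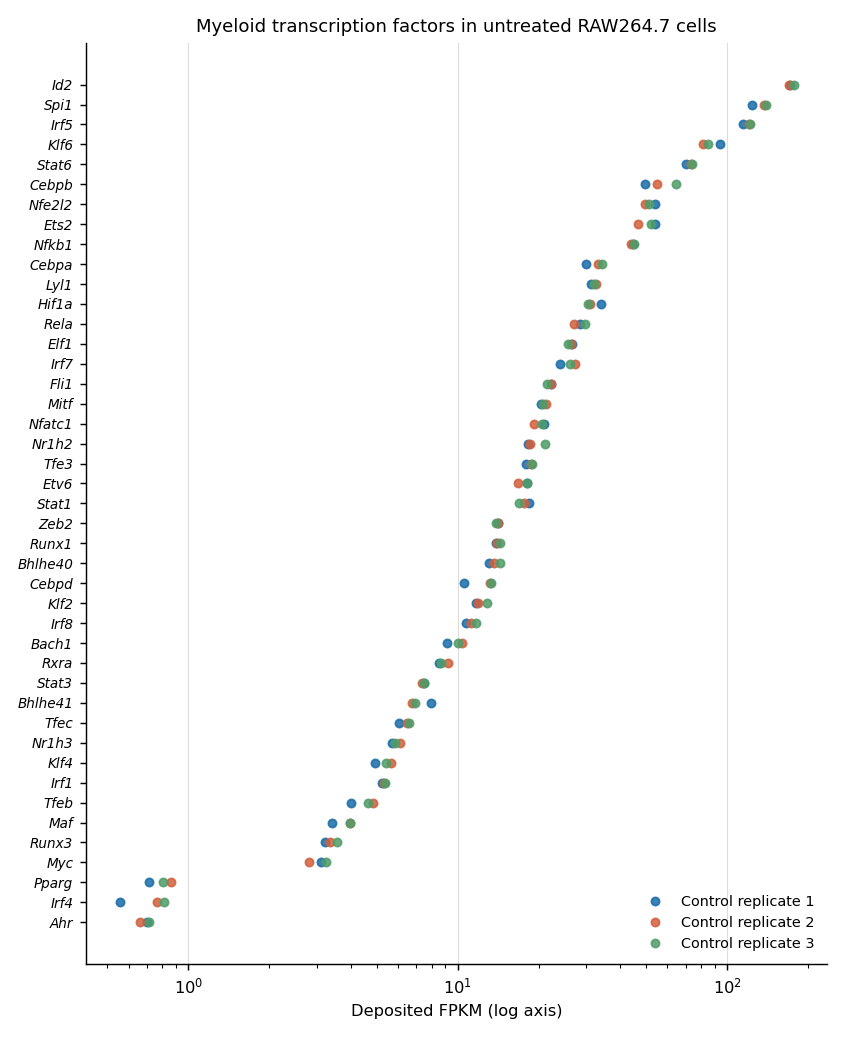
FPKM (log axis) of 43 myeloid transcription factors in the count table, ordered by their mean, with 1 point per untreated library. The order runs from Id2 at 172 to Ahr at 0.694.

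PU.1 is known to bind a purine-rich element with the core GAGGAA in myeloid promoters, and the promoter sequences of the abundant macrophage genes were therefore searched for these letters. The core, on either strand (GAGGAA or TTCCTC), was present in 28.3% of 32851 RefSeq promoter windows of GRCm38.p6, each reaching from 250 bases before to 50 bases after a gene start, and in 26.6% of 8849 windows of protein-coding genes in the count table. Windows were matched for 10 of the 15 defining markers, and 5 held the core. For Fc, complement and integrin receptors it was present in 11 of 18 windows (61.1%), for pattern recognition receptors in 8 of 19 and for vacuolar ATPase subunits in 2 of 12. The other lists searched were lysosomal proteases, with 3 of 11, NADPH oxidase subunits, with 2 of 4, and genes of line origin and proliferation, with 6 of 17 (35.3%). The 100 most abundant of the 8849 protein-coding genes with a matched window held it in 27 cases, near the share of all 8849. A match is a description of the letters and not a bound site.
The 250 bases before the start are shown for 3 abundant genes with the core and for Lyz2, the most abundant gene, without it, 5′ to 3′ on the gene's strand, with each match in capitals.
Itgam: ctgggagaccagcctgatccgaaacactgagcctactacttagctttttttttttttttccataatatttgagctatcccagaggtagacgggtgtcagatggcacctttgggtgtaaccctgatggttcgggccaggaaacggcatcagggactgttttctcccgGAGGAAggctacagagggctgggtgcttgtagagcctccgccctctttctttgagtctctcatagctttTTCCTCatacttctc
Cd68: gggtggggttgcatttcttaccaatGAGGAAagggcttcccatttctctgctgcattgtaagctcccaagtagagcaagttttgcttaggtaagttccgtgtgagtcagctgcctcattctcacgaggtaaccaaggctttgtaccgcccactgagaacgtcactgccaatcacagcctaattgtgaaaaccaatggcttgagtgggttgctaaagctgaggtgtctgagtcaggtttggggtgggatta
Spp1: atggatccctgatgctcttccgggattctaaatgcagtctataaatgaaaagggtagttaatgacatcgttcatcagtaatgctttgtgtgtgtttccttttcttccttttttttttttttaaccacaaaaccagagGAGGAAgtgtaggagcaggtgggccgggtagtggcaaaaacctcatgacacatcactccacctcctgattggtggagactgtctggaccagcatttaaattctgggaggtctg
Lyz2: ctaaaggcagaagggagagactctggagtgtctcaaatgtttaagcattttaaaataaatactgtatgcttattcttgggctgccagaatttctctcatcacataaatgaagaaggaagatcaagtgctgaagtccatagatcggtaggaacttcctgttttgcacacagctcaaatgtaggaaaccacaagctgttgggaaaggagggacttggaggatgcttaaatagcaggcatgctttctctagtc
Itgam (chr7:128062390-128062639, plus strand) held the core 84 and 15 bases before its start, once in each orientation. Cd68 (chr11:69666171-69666420, minus strand) held it 225 bases before the start and Spp1 (chr5:104434861-104435110, plus strand) 113 bases before, both on the gene's strand. The Lyz2 window (chr10:117282273-117282522, minus strand) held these letters on neither strand although the gene was at 8153 ± 287 FPKM, which says nothing of PU.1 at other sequences or sites.

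Surface receptors for particles were dominated by a few genes. Of the scavenger and efferocytosis receptors, Msr1 (scavenger receptor A) was at 294, 296 and 285 FPKM, the collectin-type scavenger receptor Colec12 at 240 ± 5.17 and Cd36, which takes up oxidised lipoproteins, at 214 ± 3.33. Mrc1, the mannose receptor, was at 0.491, 0.613 and 0.600 FPKM, so Msr1 exceeded it 519 ± 69.2-fold, and Axl was at 0.520 ± 0.0873. Marco, Cd163, Timd4, Cd209a, Megf10 and Tyro3 were listed under 10 counts, of 27 genes in this list. Marco is a scavenger receptor known in other macrophages to bind silica, and none of its 1923 windows of 50 bases was shared with another annotated gene.

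Every Fc, complement and integrin receptor on the list except Vsig4, a complement receptor of Kupffer cells, was in the count table, and all 25 were at 1 FPKM or more. After Fcer1g the highest were the inhibitory receptor Sirpa (209 ± 13.1 FPKM), which binds CD47, Lilrb4a (181 ± 15.3), Cd52, the shared beta-2 integrin chain Itgb2 (156 ± 9.85) and the C5a receptor C5ar1 (151 ± 14.6). Of the IgG receptors, Fcgr1 (39.9) was above Fcgr3, at 25.8, 31.9 and 32.2 FPKM, and both were above the inhibitory Fcgr2b (11.5 ± 0.673) and Fcgr4 (8.63 ± 0.716), each apart from the next in range. The alpha chains on this list ran from Itga4 (102 FPKM) through Itgam (89.7) and Itgal (34.6) to Itgax, the CD11c chain of dendritic cells, at 1.93, 1.88 and 2.37.

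Microbial sensors were led by Cd14, by the C-type lectin Clec4d (404 ± 13.4 FPKM) and by Ly86 (392 ± 9.35), which partners the Toll-like receptor homologue Cd180. Tlr2, a receptor for bacterial lipoproteins, was the highest Toll-like receptor at 192, 182 and 183 FPKM. It exceeded Tlr4, the lipopolysaccharide receptor, 6.77 ± 0.276-fold, since Tlr4 stood at 27.1, 27.8 and 27.5. The endosomal nucleic acid receptors Tlr13 (57.6 ± 1.08) and Tlr7 (53.6 ± 1.10) were above Tlr4, whereas Tlr9 (4.23 ± 0.157) and Tlr3 (3.54 ± 0.285) were below it, and Tlr5, the flagellin receptor, was listed under 10 counts. Unc93b1, the chaperone that carries endosomal Toll-like receptors, was at 150 FPKM.

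Cytokine receptors were uneven. After Csf1r came Cx3cr1, the fractalkine receptor, at 212, 201 and 210.5 FPKM, which exceeded Ccr2, the receptor of inflammatory monocytes, 60.05 ± 2.02-fold. The interferon receptor chains Ifnar2 (62.1 ± 2.12), Ifngr2 (42.1 ± 1.93), Ifngr1 (27.8 ± 1.06) and Ifnar1 (25.9 ± 1.08) were all present, and Tnfrsf11a, which encodes the osteoclast receptor RANK, was at 45.6 ± 1.23. Il1r1 and Ccr7 were listed under 10 counts, and Il7r and Il1r2 were below 1 FPKM at 0.924 and 0.163.

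Lysosomal genes were high as a group, with a median of 42.2 FPKM against 8.03 over all genes. All 45 genes of the list of hydrolases, cofactors and membrane proteins were at 1 FPKM or more, 42 at 10 or more, and together they took 3.14% of the counts. Lyz2 and Lyz1 are members and took 1.58%, and the other 43 genes took 1.56%. Gpnmb, a glycoprotein of lysosomes and melanosomes, was at 721, 756 and 764 FPKM, Lamp1 at 551 ± 2.37, the saposin precursor Psap at 520 ± 19.5 and the acid lipase Lipa at 358 ± 7.91. The lowest were Npc1, which exports cholesterol (9.01 ± 0.230), Acp5 (7.16 ± 0.837) and Idua (4.60 ± 0.317).

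Of 16 lysosomal proteases, 15 were in the count table and 7 were at 100 FPKM or more. Cathepsin S, Ctss, stood at 932, 950 and 916 FPKM and cathepsin D, Ctsd, at 938, 926 and 926, with a ratio of 0.998 ± 0.0201 of Ctsd to Ctss, so the pair did not differ beyond their spread. Ctsl (810 ± 26.0), Ctsb (756 ± 4.07) and Ctsz (618 ± 2.80) followed, each apart from the next. Ctsk, the collagen-degrading cathepsin of osteoclasts, was the lowest at 5.16, 4.52 and 5.55 FPKM, and Ctsw, a cathepsin of cytotoxic lymphocytes, was listed under 10 counts.

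The vacuolar ATPase acidifies lysosomes, and 15 of 19 listed subunits were at 10 FPKM or more with a median of 59.9. Forms of a subunit differed widely in level. Atp6v0d1 was at 87.6, 81.6 and 86.9 FPKM and Atp6v0d2, the form induced in osteoclasts, at 0.728, 0.712 and 0.838, a ratio of 113 ± 8.41. Atp6v1b2 was at 56.8 FPKM, and Atp6v1b1, the kidney form, was listed under 10 counts. Tcirg1, the a3 subunit of osteoclasts and macrophages, was at 83.4 ± 3.33, above Atp6v0a2 (25.7) and Atp6v0a1 (9.08), other forms of that subunit.

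Subunits of the phagocyte NADPH oxidase, which makes superoxide, were abundant, and 7 of 9 listed genes were at 10 FPKM or more. Its membrane chains Cyba (452, 469 and 482 FPKM) and Cybb (261, 251 and 245), its cytosolic subunits Ncf1 (196 ± 5.35) and Ncf4 (172 ± 4.02), and the GTPases Rac2 (210 ± 1.90) and Rac1 (129) were all above 100 FPKM. Of the other oxidases, Nox1 was at 0.0650, 0.122 and 0.109 FPKM and Nox4 was listed under 10 counts.

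Antigen presentation was split between its class I and class II parts. B2m, the invariant class I light chain, was at 1056, 1190 and 1119 FPKM and the class I heavy chains H2-D1 and H2-K1 at 255 ± 16.5 and 128 ± 11.2. The class II chains H2-Ab1, H2-Aa and H2-Eb1 were at 3.85 ± 0.673, 3.48 ± 0.385 and 3.32 ± 0.825 and did not separate from each other. Ciita, the class II transactivator, was at 0.213, 0.257 and 0.295 FPKM, and yet the class II invariant chain Cd74 was at 301 ± 34.3 FPKM, 86.6 ± 7.60-fold above H2-Aa. The co-stimulatory ligands Cd80 (3.63 ± 0.452), Cd40 (1.71 ± 0.208) and Cd86 (1.24 ± 0.153) were low. H2-D1 and H2-K1 shared 12.8% and 9.63% of their windows with other annotated genes, so their values are less certain than those of B2m.

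Untreated cells carried inflammatory transcripts of some kinds, and others were listed under 10 counts. Nlrp3, an inflammasome sensor, was at 52.7, 48.0 and 53.9 FPKM, Casp1 at 56.4 ± 2.05 and the pore protein Gsdmd at 59.7 ± 2.50. Pycard, the adaptor that links Nlrp3 to Casp1 and is known to be missing from RAW264.7 cells, was listed under 10 counts, and none of its 3785 windows was shared. Il1b was at 5.90, 8.89 and 8.70 FPKM, with control replicate 1 lowest.

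Several chemokine genes were above 100 FPKM. Ccl3, a neutrophil and monocyte attractant, was at 258, 186 and 225 FPKM, Cxcl14 at 233, 248 and 254, Ccl9 at 187 ± 17.4, Ccl2 at 131 ± 13.9 and Cxcl2 at 118 ± 16.6, and Tnf was at 45.9, 33.0 and 40.7. Control replicate 2 was the lowest library for Ccl3, Cxcl2 and Tnf. In contrast Il6, Il12a, Il12b, Il23a, Ifnb1, Csf2, Cxcl1, Cxcl3, Cxcl9, Ccl8 and Ccl17, 11 of 35 secreted factors, were listed under 10 counts, and Csf3 had 1 count in each library.

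The markers used to score macrophage activation were mostly low. Nos2, the nitric oxide synthase of classical activation, was at 0.328, 0.333 and 0.444 FPKM and Arg1, the arginase of alternative activation, at 0.291, 0.610 and 0.911, and Retnla, Chil3, Chil4 and Mgl2 were listed under 10 counts. Acod1, which makes itaconate, was at 25.4 ± 1.36 FPKM, Ptgs2 at 28.7, the fatty acid receptor Gpr84 at 43.1 and the heme oxygenase Hmox1 at 62.1 ± 2.45.

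Most markers of other cell types were listed under 10 counts. Of 17 B lineage markers 14 were listed under 10 counts, among them Cd79a, Cd79b, Pax5, Rag1 and Rag2, and Cd22 had 3, 3 and 2 counts. The exceptions were Blnk, a B cell adaptor, at 18.1 ± 0.695 FPKM and the immunoglobulin heavy chain gene Ighm at 6.91, 5.48 and 6.40. Of 16 T and NK cell markers 13 were listed under 10 counts, and Lck was at 2.14 ± 0.0512. Granulocyte and mast cell markers were listed under 10 counts in 14 of 17 cases, with Cebpe at 8.35 ± 1.24 and S100a8 at 3.40, 2.75 and 1.85. Fibroblast, endothelial and epithelial markers were listed in 12 of 16 cases, and the remaining 4 stood between 0.0255 and 0.261 FPKM. Of 13 erythroid and megakaryocyte markers 11 were listed under 10 counts, and the others were the transferrin receptor Tfrc at 75.0 ± 7.17 FPKM and the platelet chemokine Pf4 at 34.7 ± 3.49. Of 10 dendritic cell markers 6 were listed under 10 counts, and the other 4 were Bst2, an interferon-induced membrane protein, at 144, 157 and 140 FPKM, Irf8 at 11.2, Zbtb46 at 0.460 and Itgae at 0.0231.

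Of the tissue macrophage markers, 10 of 18 were listed under 10 counts, among them Timd4, Vsig4, Marco, Spic, Lyve1 and Gata6. Siglec1, a sialic acid receptor, was at 7.37 ± 0.689 FPKM, while P2ry12, Tmem119 and Clec4f had means below 1 FPKM. Of 12 osteoclast markers, Car2, a carbonic anhydrase, was at 548, 414 and 462 FPKM, Tnfrsf11a at 45.6 and its target Nfatc1 at 20.2 ± 0.914, whereas Dcstamp, needed for cell fusion, was at 1.73 ± 0.128, Itgb3 at 0.0322 and Calcr and Oscar were listed under 10 counts. RAW264.7 cells are widely used as osteoclast precursors.

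Cell cycle genes were prominent among the genes of line origin and proliferation. Ccnd1, the G1 cyclin that acts after growth factor signals, was at 152, 155 and 157 FPKM and exceeded Ccnd3 19.6 ± 1.18-fold, with Ccnd2 at 0.141. Mki67 (72.5 ± 2.19), Top2a (91.0), Cdk1 (62.7) and Mcm5 (124) were all present. Cdkn2a and Cdkn2b, the neighbouring cell cycle inhibitor genes, were listed under 10 counts, and no window of either was shared with another annotated gene, whereas the inhibitor Cdkn1a was at 154 ± 4.12 and Trp53 at 50.7 ± 2.52. The Y-linked genes Ddx3y (22.7), Eif2s3y (20.5), Kdm5d (6.61) and Uty (3.32) were present and Xist was listed under 10 counts.

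Across the genome 25582 gene IDs were listed under 10 counts, which means at most 9 counts in any library, or 0.387, 0.405 and 0.466 CPM in control replicates 1, 2 and 3. Of these 24433 were matched by ID to the GENCODE M21 annotation of GRCm38, 9809 of them protein coding. Sensory and epithelial families were almost wholly among them, with 1003 of 1007 olfactory receptors, all 284 vomeronasal receptors, all 64 defensins and 52 of 53 keratins. Of 38 Hox factors 11 were in the count table, with Hoxb7 highest at 10.5 FPKM.

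Some genes used by every cell had low values. Of the 13 mitochondrially encoded proteins 6 were listed under 10 counts, although mt-Cytb was at 3261 FPKM. For mt-Co2, mt-Co3, mt-Atp6, mt-Nd3 and mt-Nd4l 98.0% to 100% of the 50-base windows occurred in another annotated gene, but for mt-Atp8 none did. Gapdh, a glycolytic enzyme of all cells, was at 2.03, 1.98 and 2.30 FPKM while Pkm was at 1370, and 24.7% of its windows occurred in other genes, 218 of them. The ribosomal proteins ran from Rplp1 at 1780 to Rps6 at 1.12 and Rpl29 at 0.470 FPKM. Rpl29 shared windows with 82 other genes and Rplp1 with 5, but the share of windows was lower in Rpl29 (35.1%) than in Rplp1 (60% of 450). Over the 81 ribosomal protein genes in the count table, the 23 with at most 5 such genes had a median of 145 FPKM and the 20 with over 20 had 8.56, with a Spearman rho of -0.44 across genes between level and number of sharing genes, and of -0.34 between level and share of windows. The genes share libraries and are not independent. The sources used here do not say how the authors treated reads with several matches, and the part of shared sequence in these values was not tested further. Of the 114 list members under 10 counts, 103 shared less than 10% of their windows.

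Near the limit, 39 genes of the count table had 3 or fewer counts in every control library and 3 had none, Efcab6, Stab2 and Sdk2. They were in the table because a treated library reached at least 10 counts. Dio2, a deiodinase that activates thyroid hormone, had 0, 1 and 0 counts in control, 1, 0 and 1 in Stober500 and 0, 3 and 1 in Stober50, against 55, 60 and 63 in MSN500 and 39, 32 and 70 in MSN-PEG500. Efcab6 had 0 counts in all control libraries and 19, 12 and 15 in MSN500. Zan, Celsr1, Cyp4f39 and Cd22 had 0 to 3 counts per control library and a mean of 0.804 to 0.965 CPM in MSN500. These 6 were picked for the highest mean in a treated group, so the contrast is a description.

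The untreated libraries agreed closely but differed by more than sampling noise. Over genes with at least 20 counts in a pair, chi-square per degree of freedom was 5.39 for replicates 1 and 2, 4.69 for 1 and 3 and 2.86 for 2 and 3, so none was a duplicate of another. At a mean of 10 CPM or more, 9006 genes had a median coefficient of variation (CV) of 4.01%, where Poisson counting error alone gives 2.87%, and 445 had a CV of at least 10%. From 100 to 1000 CPM the median CV was 3.19% against a counting error of 1.67%.

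Among genes at a mean of 10 CPM or more, the highest spread was that of Gm42418, a lincRNA model at chr17:39846958-39848788, at 527, 1302 and 962 CPM. It was the only gene at this level with over 2-fold difference between replicates 1 and 2. The others of the 10 highest were ENSMUSG00000089788, Fbl, Plk2, Gm25745, Pirb, mt-Nd6, Il1b, Rbfox1 and Eno2, at CVs of 20.9% to 23.7%. Plk2, a polo-like kinase, was at 81.6, 51.5 and 63.9 CPM and Il1b at 11.3, 17.0 and 16.6. Pirb shared 34.0% of its windows with other genes, so its value is less certain.

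**Figure D4:**
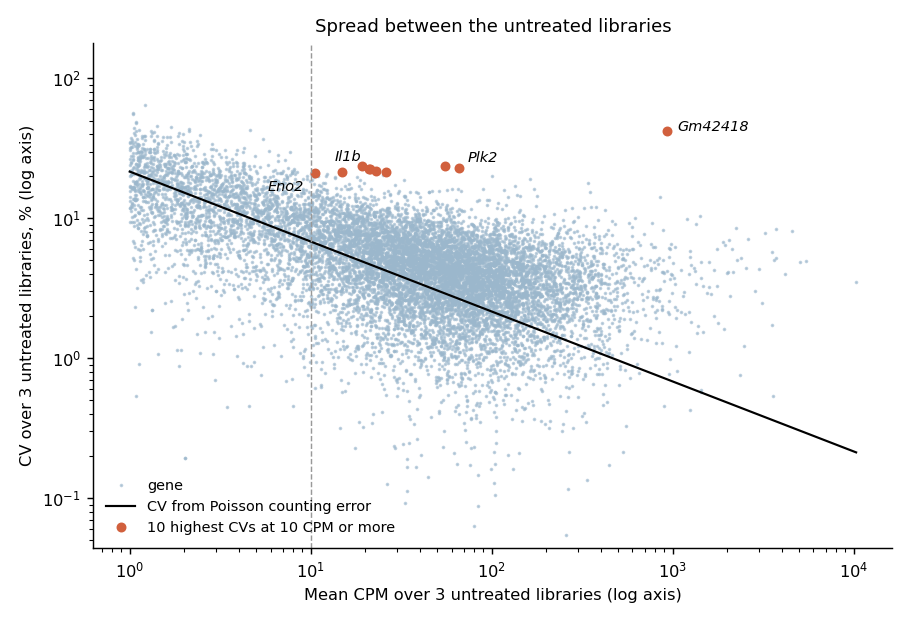
CV over the 3 untreated libraries against mean CPM (both log axes), with 1 point per gene at 1 CPM or more, the CV that Poisson counting error gives as a line, and the 10 genes with the highest CV at 10 CPM or more in orange. Gm42418 stands apart at 41.8%, and the other 9 lie between 20.9% and 23.7%.

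In some gene lists most members were lowest in the same untreated library, by small amounts. Of all 9006 genes at 10 CPM or more, 33.6% were lowest in control replicate 1, 36.8% in replicate 2 and 29.6% in replicate 3. Antigen presentation genes were lowest in replicate 1 in 13 of 18 cases, at a median of 0.929 of their mean, and transcription factors in 27 of 44 cases, at 0.970. In a list of hypoxia and glycolysis genes chosen after these values were seen, 21 of 28 were lowest in replicate 1, at a median of 0.939 of their mean, with Ndrg1 at 19.6, 28.9 and 25.9 FPKM. Immediate early and AP-1 genes were lowest in replicate 2 in 11 of 17 cases and in replicate 3 in none, at a median of 0.917 of their mean in replicate 2, with Zfp36 at 231, 200 and 223. The lists named here had uneven counts, whereas vacuolar ATPase subunits were lowest in replicates 1, 2 and 3 in 6 cases each of 18. List members below 10 CPM were counted too, unlike in the shares of all 9006 genes. No test was made of these lowest-library counts, and whether handling or culture moved with them was not tested.

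The baseline was set against the treated cells to see which of its macrophage genes moved. All comparisons share the same 3 control libraries, so they are not independent, and the groups differ in particle and dose together. Of 12798 genes tested, 5489 (42.9%) differed from control in MSN500, 4397 (34.4%) in MSN-PEG500, 969 (7.57%) in Stober50 and 1 (0.00781%) in Stober500, with a threshold of 0.05 on the adjusted p. All adjusted p-values here come from edgeR (quasi-likelihood F test, Benjamini-Hochberg over all genes). In Stober500 1526 genes had an unadjusted p under 0.05, and DESeq2 called 105 but gave no adjusted p to 8436 of the 12798 genes. With edgeR the Stober500 count of 1 rose to 90 without Stober500 replicate 3 and to 6 without control replicate 1, and it was 2 without control replicate 2, control replicate 3 or Stober500 replicate 2 and 0 without Stober500 replicate 1. The Stober50 count fell to 412 without Stober50 replicate 2, to 533 without Stober50 replicate 1, to 584 without control replicate 1 and to 631 without control replicate 2.

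Of the 15 macrophage defining markers, 5 were higher and 6 lower in MSN500, where 21.6% of all genes were higher and 21.2% lower, and 4 were higher and 6 lower in MSN-PEG500, where the shares were 17.5% and 16.9%. In Stober50 3 were higher and 1 lower, against 3.85% and 3.72% of all genes, and the number called there ran from 0 to 6 over the alternatives. The markers therefore moved in both directions, with a median log2 change of -0.01 in MSN500 against -0.00395 over all genes. Lgals3 was at 577, 664 and 702 FPKM in control and 1037, 1107 and 1093 in MSN500, without overlap, a log2 change of 0.80 ± 0.06 (SE, adjusted p = 1.1e-09). Mpeg1 was at 254, 262 and 251 in control and 409, 439 and 423 in MSN500 (log2 change 0.80 ± 0.04, adjusted p = 2.4e-14). Csf1r moved the other way, from 713, 727 and 738 FPKM to 498, 503 and 495 in MSN500 and 539, 544 and 499 in MSN-PEG500 (log2 changes -0.47 ± 0.04 and -0.40 ± 0.04, adjusted p = 1.3e-10 and 3.3e-09). Fcgr1 fell by 0.50 ± 0.05 on the log2 scale in MSN500 (adjusted p = 4.8e-09), from 41.5, 40.6 and 37.5 FPKM to 27.7, 26.1 and 27.1.

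Cd14 was at 761, 811 and 835 FPKM in control and 803, 823 and 777 in MSN500, groups that overlap, with a log2 change of 0.06 ± 0.05 (adjusted p = 0.26). Spi1 was at 125, 127 and 125 FPKM in MSN500 (log2 change -0.01 ± 0.05, adjusted p = 0.85) against 124, 136 and 139 in control. In MSN-PEG500 it was lower by the test (log2 change -0.19 ± 0.05, adjusted p = 0.0067), a call lost without control replicate 3 (adjusted p = 0.054) or without MSN-PEG500 replicate 3 (0.056). Lyz2 was at 8368, 7826 and 8264 FPKM in control and 7698, 7845 and 7522 in MSN500, with a log2 change of -0.02 ± 0.04 (adjusted p = 0.75). In MSN-PEG500 it was at 7405, 7484 and 7039 FPKM and lower by the test (log2 change -0.10 ± 0.04, adjusted p = 0.043), a call lost under 6 alternatives.

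**Figure D5:**
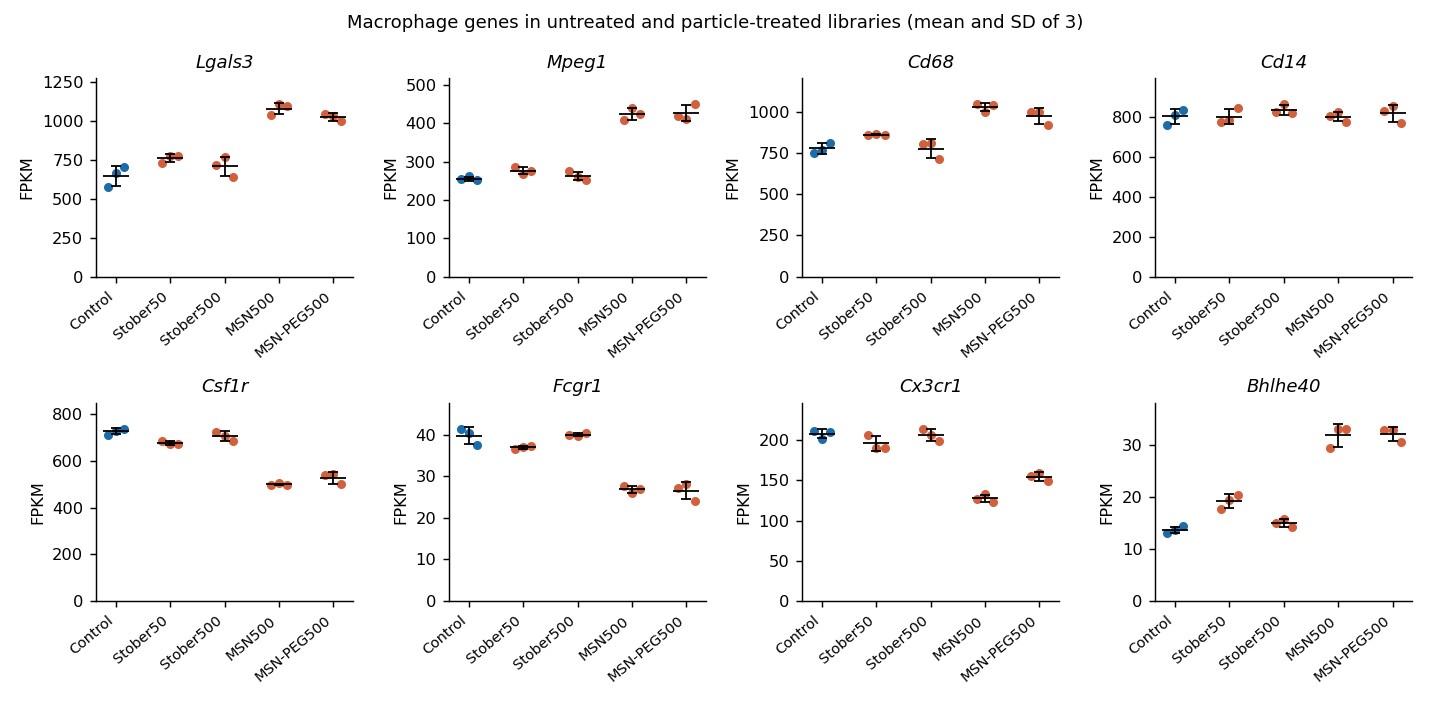
FPKM of 8 macrophage genes in the 5 groups, with 1 point per library and the mean and SD of 3 libraries in black. Lgals3, Mpeg1, Cd68 and Bhlhe40 are higher and Csf1r, Fcgr1 and Cx3cr1 lower in both mesoporous groups than in control, and Cd14 overlaps across all groups.

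The other baseline groups were counted against the same shares of all genes, 21.6% higher and 21.2% lower in MSN500 and 17.5% and 16.9% in MSN-PEG500. Of 44 transcription factors 19 were higher and 12 lower in MSN500, and 18 higher and 13 lower in MSN-PEG500. Bhlhe40, a helix-loop-helix repressor, rose from 13.1, 13.6 and 14.4 FPKM to 29.4, 33.2 and 33.1 in MSN500 (log2 change 1.29 ± 0.06, adjusted p = 7.3e-16). Of 18 vacuolar ATPase subunits 16 were higher and 1 lower in MSN500, and 16 were higher and 0 lower in MSN-PEG500. Of 45 lysosomal hydrolases, cofactors and membrane proteins 31 were higher and 3 lower in MSN500, and 32 higher and 4 lower in MSN-PEG500. Lysosomal proteases were higher in 9 and lower in 3 of 15 cases in each of these groups. In Stober50 10 of 18 vacuolar ATPase subunits, 12 of 45 genes of the hydrolase list and 6 of 15 proteases were higher. In each of these lists 0 were lower in Stober50, where 3.85% of all genes were higher and 3.72% lower. Over the alternatives these Stober50 counts ran from 9 to 12, 7 to 15 and 4 to 7. Of 7 NADPH oxidase genes tested in MSN500, 1 was higher and 2 lower, no larger a share than the 42.9% of all genes. Cyba rose from 452, 469 and 482 FPKM to 580, 598 and 581 (log2 change 0.39 ± 0.05, adjusted p = 8.2e-07), and Ncf1 fell by 0.42 ± 0.04 on the log2 scale, from 190, 200 and 198 to 138, 146 and 135 (adjusted p = 2.2e-09).

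Of 25 Fc, complement and integrin receptors 9 were higher and 8 lower in MSN500, of 31 cytokine, growth factor and chemokine receptors 9 and 13, of 26 pattern recognition receptors 7 and 10, and of 21 scavenger and efferocytosis receptors 5 and 12. Lilrb4a rose from 188, 164 and 192 FPKM to 387, 371 and 419 in MSN-PEG500 (log2 change 1.17 ± 0.09, adjusted p = 1.9e-07), without overlap. Cx3cr1 was at 212, 201 and 211 FPKM in control, 128, 133 and 122.9 in MSN500 and 156, 160 and 149 in MSN-PEG500 (log2 change -0.64 ± 0.04 in MSN500, adjusted p = 2.3e-12). Tnfrsf11a went from 46.1, 44.1 and 46.4 FPKM to 23.7, 23.2 and 23.3 in MSN500 (log2 change -0.90 ± 0.04, adjusted p = 1.1e-15). In bulk RNA a change in the share of cells of a kind and a change in RNA per cell cannot be told apart.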

How the data were processed

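RNA of RAW264.7 cells was sequenced in 15 libraries (TruSeq, HiSeq2000, 50 cycles, single read, per the labels' protocols), of which the 3 control libraries were described. The submitters' processing notes name the builds mm10 and GRCm38 and the tools limma 3.28.21, DESeq2 and Novoalign 2.08.03, without their roles. The authors deposited whole-number read counts per gene, for genes with at least 10 counts in some library, and FPKM, which are scaled to exon length and library size, per the file headers. At most 0.0353% of the library size implied by the deposited FPKM lay outside the table. This is not a share of all sequenced reads. Whether strand was used when counting is not stated in what was available, so overlapping genes are uncertain. Of 13173 genes with an ID in GENCODE M21, 99.96% overlapped the annotated gene.

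Means, SDs and ranks were taken from the deposited FPKM, and CPM and CV from the counts. Replicates were compared by chi-square over their counts. Windows of 50 bases were compared across GENCODE M21 transcripts. Promoter sequences are from RefSeq (GRCm38.p6). Treated groups were compared with control with edgeR 4.0.16 in R 4.3.3 on counts, with TMM factors of 0.974 to 1.02 and filterByExpr. A robust quasi-likelihood fit of 5 group means covered all 15 libraries and 12798 genes (two-sided, Benjamini-Hochberg, threshold 0.05). The fit was also run on simulated counts with few changed genes and a common spread for all genes. That setting is unlike these data, so the run does not bear on the calls here. DESeq2 1.42.0, limma-voom 3.58.1, other size factors, no filter, a replicate block and leaving out libraries were alternatives. Python 3.11.15 with pandas 2.3.3 was used.

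The members and gene lists were chosen with earlier results of these data known. Genes named were the 20 highest by FPKM, up to 6 highest, defining or lowest members of each list, and the 10 highest CVs at 10 CPM or more. Also named were the 6 genes near the limit with the highest treated mean, and list members at 10 FPKM or more compared with treated groups. Such a list member could be named because it was called against control, and most of those compared were called. Other members and family extremes are named where a count or a ratio calls for them and were chosen after their values were seen. With 3 libraries a group, p-values measure the spread between these libraries. A few list members that enter the counts are not reported here by name.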

Additional observations from a re-analysis of the deposited data

How the results depend on the processing

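Of 65 alternative values for counts and shares 24 moved, of 100 for ranks of named genes 27, and of 144 for median ranks of lists 52. Genes at 1 FPKM or more stayed within 1.5 times of 10949 under each alternative. The share of counts in the 100 most abundant genes, 18.0%, was 17.3% without mitochondrially encoded genes and 29.0% as a share of TPM. Genes at 3 or fewer counts in every control library, 39, were 3 at 0 counts in every library, 83 at 9 or fewer counts summed, and 60 to 84 when a library was left out. The median CV of 4.01% was 4.66% at a minimum of 1 CPM and 2.76% to 3.56% with a library left out. Ranks of the 454 list members moved by a median of 591 and at most 5609 places with CPM, which is not per length, in place of FPKM, and by a median of 47 and at most 399 when a control library was left out.

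In the comparisons with control, leaving out a library gave 412 to 892 genes for Stober50, 0 to 90 for Stober500, 4824 to 5167 for MSN500 and 3723 to 4246 for MSN-PEG500. For Stober500, DESeq2 called 105 genes and limma-voom 2, none of the 105 being the gene called by edgeR. DESeq2 gave no adjusted p to 8436 of the 12798 genes there, so its count covers fewer genes than the others. Whether the edgeR gene was among those 8436 was not checked. Of the Stober50 calls 50.9% were higher in treated cells, against 68.9% without Stober50 replicate 2, 66.0% without Stober50 replicate 1 and 64.9% without control replicate 3. With the replicate number as a block the counts were 1151, 9, 5633 and 4546, but same-numbered deviations correlated at -0.16 to 0.06, so the numbers do not show a pairing. Of 374 alternative values for the 17 genes compared with MSN500 and MSN-PEG500, none changed direction after a call and 8 lost it, all in MSN-PEG500. Most of the 17 were called in both groups with all libraries, and a call was a ground for naming a gene. The alternatives reuse the same libraries, so the few lost calls are no independent support. In 1 other value a gene not called in the main edgeR fit gained a call. The 8 lost calls were 2 for Spi1 and 6 for Lyz2, whose edgeR adjusted p was 0.043 with all libraries. The causes were not tested. Depth limits the baseline at about 0.129 to 0.155 CPM for genes in the count table. For IDs listed under 10 counts the bound is wider, at 0.387 to 0.466 CPM.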
